A study of Caenorhabditis elegans with 24 samples.

Results

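The genes described here are 7 genes of meiotic chromosome pairing and recombination, measured as maternal mRNA in 4-cell embryos of the nematode Caenorhabditis elegans. They were chosen by name and matched to the array by WormBase gene ID: him-3 (WBGene00001862), him-8 (WBGene00001867), syp-1 (WBGene00006375), syp-2 (WBGene00006376), spo-11 (WBGene00004985), msh-5 (WBGene00003421) and rad-51 (WBGene00004297). All 7 were found among 15208 gene probes, with 1 probe each, and all 7 were among the 11637 probes tested.

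RNA from 24 samples of 50 embryos each was hybridised to 1 one-colour array per sample, in 8 groups of 3 samples. The strain HC445 carries the allele sid-1(qt9) and is suspected of lacking haf-6, and the strain N2 is the wild-type laboratory strain. In generation 2, the mothers of the embryos had lived at 25 °C or at 20 °C and their grandparents at 20 °C, in each strain. In generation 3, the grandparents had lived at 25 °C or at 20 °C and the mothers at 20 °C, in each strain. All worms were fed Bacillus subtilis. Each strain is a single line, and the labels do not say whether the 3 samples of a group were grown as separate cultures. The p-values therefore reflect how much these samples varied, which may be technical.

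In the mother, the meiotic role of these genes is played in the germline, before the egg is fertilised. In meiotic prophase each chromosome finds its homologous partner, a protein scaffold called the synaptonemal complex forms along the pair, and programmed DNA breaks are made and repaired from the partner so that a crossover links the pair. HIM-8 is a zinc-finger protein that binds the pairing centre of the X chromosome. HIM-3 is part of the axis along each chromosome, and SYP-1 and SYP-2 belong to the central region between the paired axes. SPO-11 makes the DNA breaks, RAD-51 coats the broken ends and carries out the strand exchange, and MSH-5 acts with its partner HIM-14 to stabilise the intermediates that become crossovers. Oocytes pass transcripts of the germline on to the embryo, and embryos at the 4-cell stage still hold mainly such maternal mRNA. The submitters' protocol mentions that spontaneous males, which arise when the X chromosome fails to segregate, become more frequent in warmer cultures.

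Signals are given on a log2 scale on which 0 is the array's own 75th percentile of processed spot intensity. That percentile lay between 30282 and 45402 intensity units. All 7 probes were well above background on all 24 arrays, none was saturated and none was marked as an outlier spot. The lowest processed intensity was 21698 (msh-5) and the highest was 307600 (syp-2), against a lowest saturation value of 639158. On every array the scanner software had taken these spots from the scan of lower sensitivity. Probes differ in how they bind, so no gene's level is set against another's. The arrays lay on 14 slides and were scanned on 3 days, and each day held 1 array of each group, so that the replicate number is also the scan day. A single slide held the 4 replicate 3 arrays of the 25 °C groups and nothing else. A raised spike-in concentration is noted or suspected in the labels of 6 arrays, and 5 of these belong to 25 °C groups. The embryo stage and the sid-1 signal of HC445 were not checked here, because the probe IDs are not paired with gene names in the tables used. Samples were pooled whole embryos, so less transcript per cell and fewer cells that hold it cannot be told apart.

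The first question was whether the mother's temperature changed what she left of these transcripts in the embryo. The break-forming gene spo-11 rose, by 1.34-fold, in embryos of 25 °C mothers with both strains pooled. It passed in 27 of 34 refits. The call was lost with slide as a fixed block, without the slide of the 25 °C arrays of replicate 3 and without any of several single arrays. The crossover gene msh-5 had an estimate of the same size, 1.38-fold, which did not pass in the fit of group means. It passed in 2 of 34 refits, those with scan day as a block or slide as a random block. Apart from the fit with slide as a fixed block, the other refits had no term for slide or scan day. The pairing, axis and synaptonemal complex genes and rad-51 had estimates between 0.951-fold and 1.08-fold, and none passed. Thus 1 of the 7 genes passed in the rising direction and 0 in the falling direction (limma, Benjamini-Hochberg adjusted p under 0.05 over all 11637 probes). Of all tested probes 14% passed in this comparison, 5.45% as rises and 8.52% as falls, so 1 in 7 is near the background. The median log2 fold change was 0.10 over the 7 genes and -0.07 over all tested probes.

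**Figure D1:**
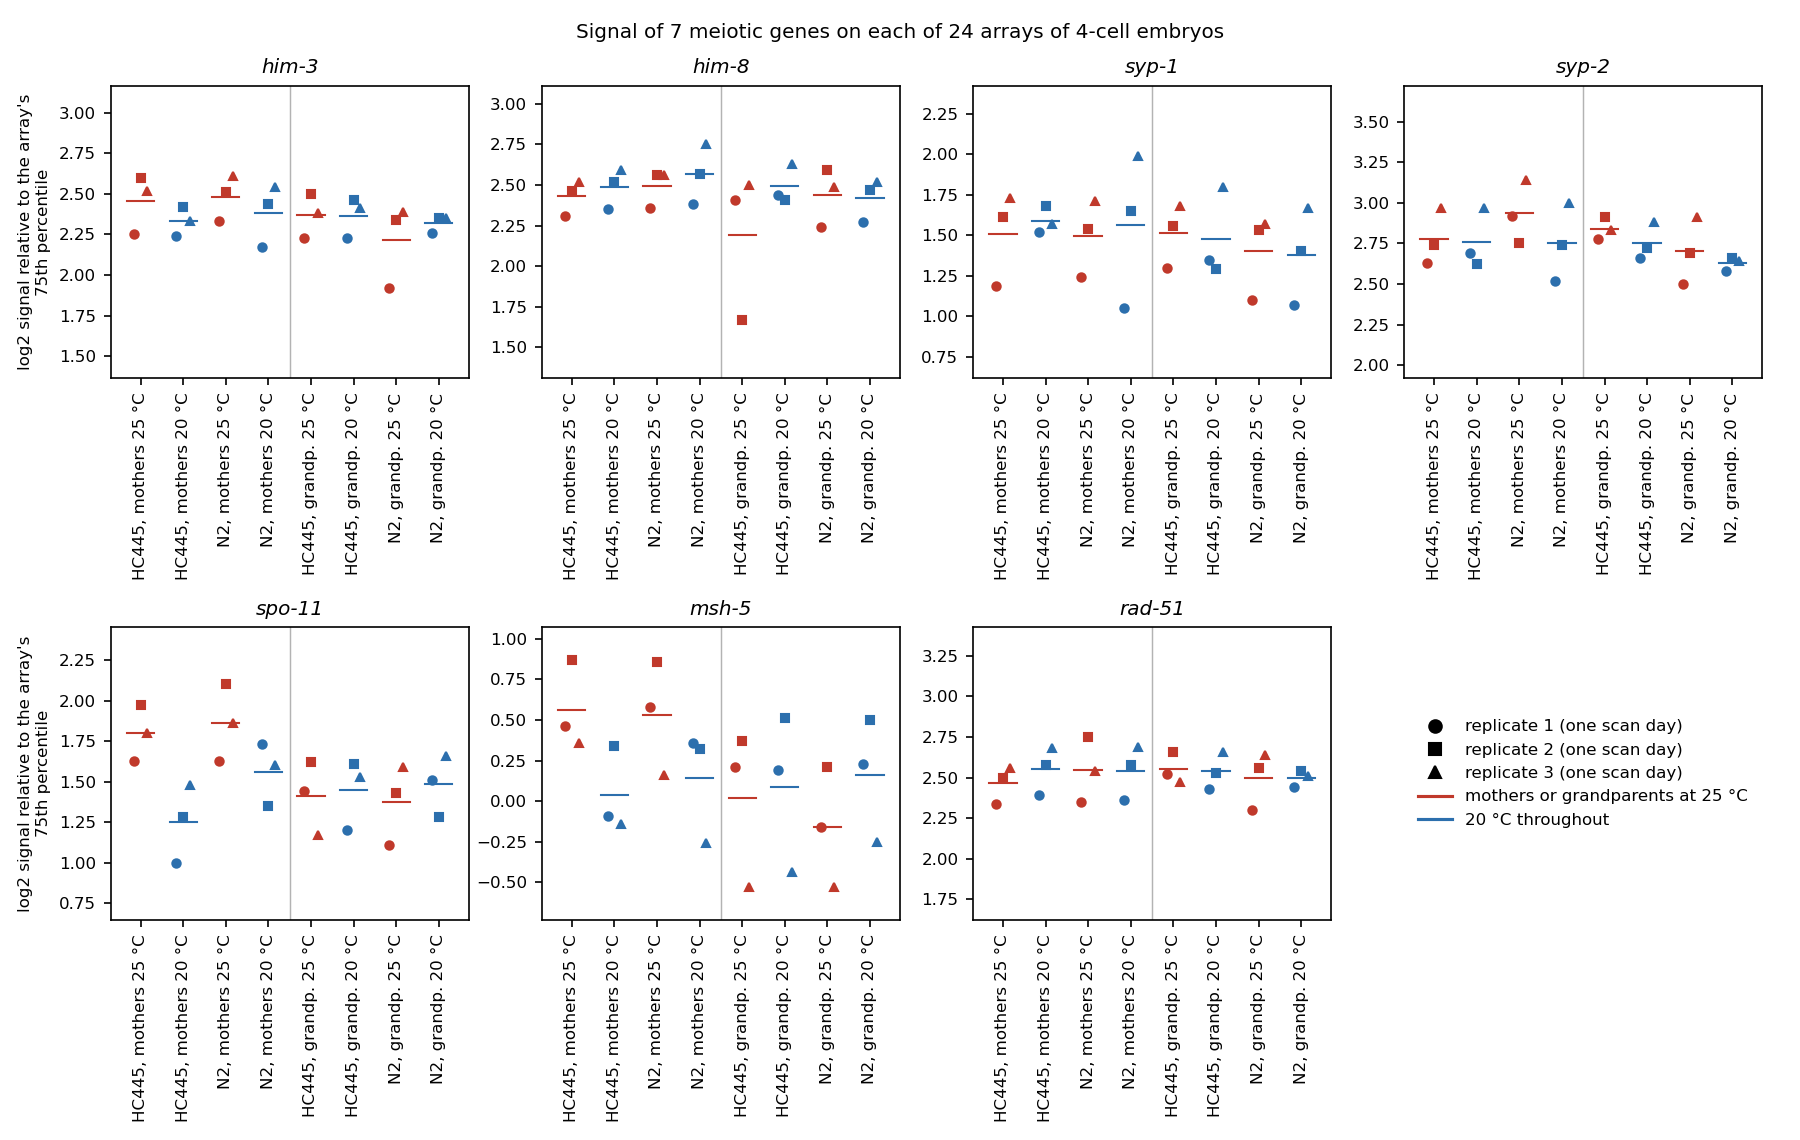
Each panel shows 1 gene on 24 arrays, with groups on the horizontal axis and the log2 signal (0 is the array's 75th percentile) on the vertical axis, all panels covering the same span. Red points are groups with 25 °C mothers (left of the grey line) or 25 °C grandparents (right of it), blue points are groups at 20 °C throughout, marker shapes are the 3 scan days, and bars are group means. The red means of spo-11 and msh-5 stand above the blue ones left of the line and not right of it, and a single him-8 array of HC445 lies far below the rest at 1.67.

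The signal of spo-11 was 1.63, 1.97 and 1.80 on the HC445 arrays of 25 °C mothers, against 1.00, 1.28 and 1.48 on the HC445 arrays of 20 °C mothers (replicates 1, 2 and 3). In N2 it was 1.63, 2.10 and 1.86 after 25 °C mothers, against 1.73, 1.35 and 1.60 after 20 °C mothers. The groups did not overlap in HC445, and in N2 they overlapped through replicate 1, whose 25 °C array was the lowest of its group and whose 20 °C array was the highest of its group. Over both strains the mean was 1.83 ± 0.19 after 25 °C mothers and 1.41 ± 0.26 after 20 °C mothers (SD, n = 6 each). The log2 fold change was 0.43 ± 0.12 (SE), with a 95% interval of 0.18 to 0.68 (limma adjusted p = 0.020). Arrays of 25 °C mothers were higher than the array of the same strain and scan day in 5 of 6 pairs, with differences from -0.10 to 0.75. The exception, N2 replicate 1, is also the only pair whose arrays shared a slide. Averaged over the strains, the difference was 0.27, 0.72 and 0.29 on the scan days of replicates 1, 2 and 3. When scan day was added as a block the adjusted p was 0.00709. The call was lost with slide as a fixed block (0.39, limma adjusted p = 0.554), without the 6 spike-in arrays (0.48, 0.0643) and without the slide of the 25 °C arrays of replicate 3 (0.43, 0.0584). It was also lost without the HC445 20 °C array of replicate 1 (0.36, adjusted p = 0.0603), the HC445 25 °C array of replicate 2 (0.38, 0.0578), the N2 25 °C array of replicate 2 (0.37, 0.0608) or the N2 20 °C array of replicate 2 (0.37, 0.0554), so the call depends on each of these 4 arrays.

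The signal of msh-5 was 0.46, 0.87 and 0.36 in HC445 after 25 °C mothers, against -0.09, 0.34 and -0.14 after 20 °C mothers. In N2 it was 0.58, 0.86 and 0.16 after 25 °C mothers, against 0.36, 0.32 and -0.26 after 20 °C mothers. Again the HC445 groups did not overlap, by 0.02 on the log2 scale, and the N2 groups did. These 2 genes were the only ones of the 7 whose HC445 groups did not overlap, both with higher values after 25 °C. Of all probes with a value on those arrays, 9.60% were higher without overlap and 13.3% lower. The mean over both strains was 0.55 ± 0.28 after 25 °C mothers and 0.09 ± 0.28 after 20 °C mothers (SD, n = 6 each), a log2 fold change of 0.46 ± 0.20 (SE; 95% interval 0.05 to 0.87; limma adjusted p = 0.130, unadjusted p = 0.0292 from the same limma fit). Within each strain and scan day the 25 °C array was higher in 6 of 6 pairs, by 0.22 to 0.55, as for 9.18% of all probes. On the shared slide the N2 difference was 0.22. When scan day was added as a block the standard error was 0.08 and msh-5 passed (limma adjusted p = 0.000514), as did 22.9% of all probes in that fit, and when slide was a random block instead its adjusted p was 0.0496, with 16.7% of all probes passing.

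The remaining 5 genes did not pass, and their intervals all included 0. RAD-51 is needed for repair in dividing cells as well as in meiosis, and its transcript had a log2 fold change of -0.04 ± 0.09 (SE), with a 95% interval of -0.22 to 0.14. The rad-51 signal was between 2.34 and 2.75 after 25 °C mothers and between 2.36 and 2.69 after 20 °C mothers, so that the groups overlapped almost fully. For the axis gene him-3 the signal was 2.25 to 2.61 after 25 °C mothers and 2.17 to 2.54 after 20 °C mothers, and the log2 fold change was 0.11 ± 0.09 (interval -0.09 to 0.31). Its 25 °C arrays were higher in 6 of 6 pairs, as for 9.18% of all probes, but by only 0.01 to 0.18. The limma adjusted p of him-3 was 0.156 when scan day was a block. The X pairing gene him-8 was lower in 6 of 6 pairs, by 0.01 to 0.19 on the log2 scale, with a log2 fold change of -0.07 ± 0.12 (interval -0.31 to 0.17). Of all probes 12.2% were lower in all 6 pairs. The central region genes had estimates of -0.07 ± 0.15 for syp-1 (interval -0.39 to 0.24) and 0.10 ± 0.10 for syp-2 (interval -0.10 to 0.30). Both overlapped between the temperatures, with syp-1 at 1.19 to 1.73 after 25 °C and 1.05 to 1.99 after 20 °C, and syp-2 at 2.63 to 3.14 after 25 °C and 2.52 to 3.00 after 20 °C. Missing the threshold does not show that these 5 transcripts were equal after both temperatures. With both strains pooled, in the fit of group means, the intervals exclude a change as large as the spo-11 estimate of 0.43 in either direction for all 5. Within 1 strain they do not for syp-1, whose interval reached -0.51 in N2 and -0.52 in HC445. Nor do they for syp-2 in N2, whose interval reached 0.46.

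**Figure D2:**
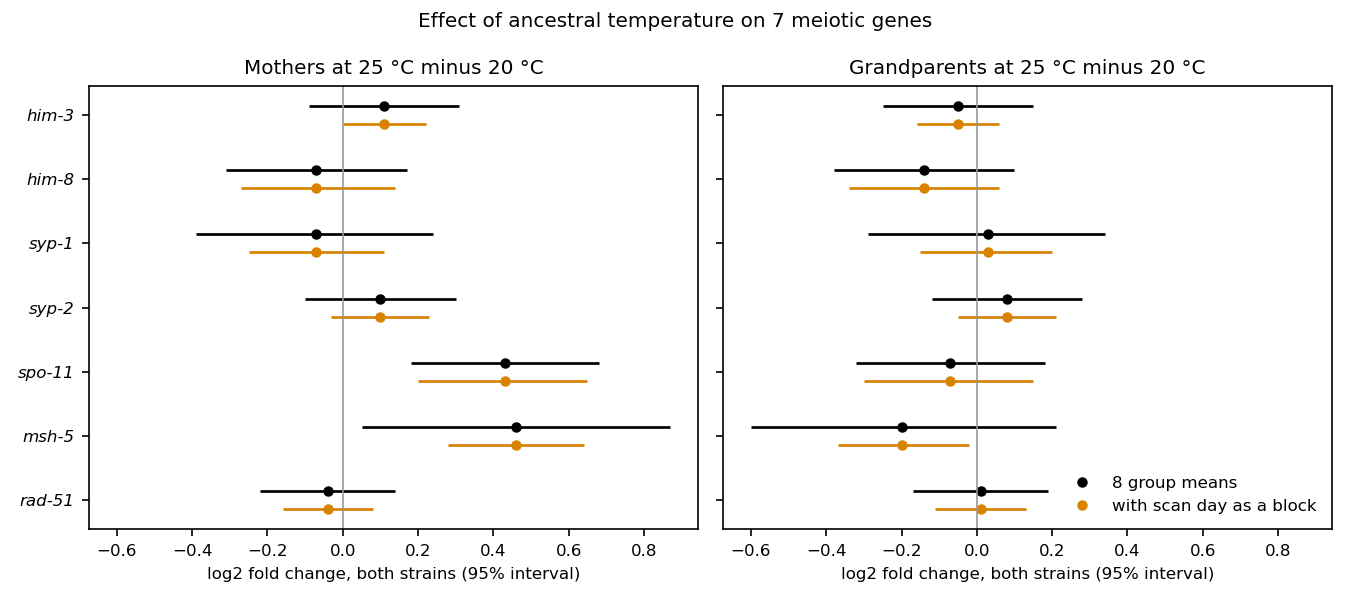
Log2 fold changes of the 7 genes, both strains pooled, with 95% intervals as bars, for 25 °C against 20 °C mothers (left) and 25 °C against 20 °C grandparents (right). Black marks are the fit of 8 group means and orange marks the fit in which scan day is a block. On the left the spo-11 (0.43) and msh-5 (0.46) intervals lie above 0 in both fits, and on the right the estimates lie between -0.20 and 0.08.

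Within each strain, limma called 0 of the 7 genes on values scaled to the 75th percentile. In HC445 this turned on the normalization, since spo-11 passed with quantile normalization (limma adjusted p = 0.0351), with normexp (0.0209) and with the deposited series values (0.036). In those fits 5.35%, 5.09% and 5.40% of all probes passed. All of these settings give every array the same distribution of values, so the calls are not independent of each other. On the values scaled to the 75th percentile, the unadjusted p was under 0.05 for 1 gene in HC445 and for 0 in N2, as for 1936 and 2054 of all 11637 probes. The shares of all probes that passed after adjustment were 5.08% in HC445 and 5.47% in N2. In HC445 the log2 fold change after 25 °C mothers was 0.55 ± 0.17 for spo-11 (limma adjusted p = 0.069) and 0.53 ± 0.28 for msh-5. In N2 it was 0.31 ± 0.17 for spo-11 (limma adjusted p = 0.381) and 0.39 ± 0.28 for msh-5. In the scan-day block fit, spo-11 and msh-5 passed in HC445 (limma adjusted p = 0.0262 and 0.0068) and msh-5 passed in N2 (limma adjusted p = 0.0400), where 9.71% and 11.1% of all probes passed. The difference between the strains in this effect, HC445 minus N2, was 0.24 ± 0.24 for spo-11 (95% interval -0.26 to 0.74) and 0.14 ± 0.39 for msh-5 (interval -0.68 to 0.95). None of the 7 genes passed the limma test of that difference, at an adjusted or an unadjusted p of 0.05, and 0 of all probes passed after adjustment, with 142 at an unadjusted p under 0.05. A strain difference as large as the effect itself lies within these intervals.

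**Figure D3:**
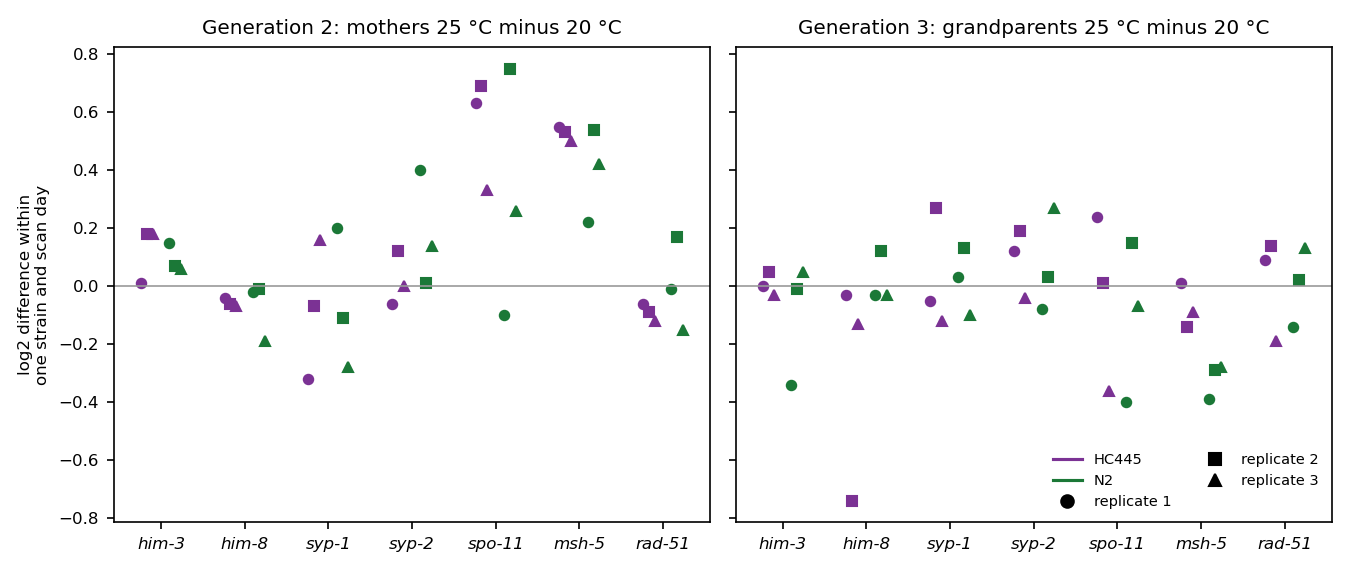
Difference between the 25 °C array and the 20 °C array of the same strain and scan day, on the log2 scale, for mothers in generation 2 (left) and grandparents in generation 3 (right). Purple is HC445, green is N2, and marker shapes are the scan days. On the left msh-5 lies above 0 in 6 of 6 pairs and spo-11 in 5 of 6, and on the right msh-5 lies above 0 in 1 of 6 and spo-11 in 3 of 6.

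The second comparison concerned the grandparents' temperature, in embryos of mothers kept at 20 °C. No change was detected in any of the 7 genes (limma, 0 of 7 at an adjusted and 0 of 7 at an unadjusted p of 0.05). Of all 11637 probes 0.284% passed after adjustment, and 738 had an unadjusted p under 0.05. The spo-11 signal was 1.44, 1.62 and 1.17 in HC445 after 25 °C grandparents, against 1.20, 1.61 and 1.53 after 20 °C grandparents. In N2 it was 1.11, 1.43 and 1.59 after 25 °C grandparents, against 1.51, 1.28 and 1.66 after 20 °C grandparents. The groups overlapped in both strains, and the log2 fold change was -0.07 ± 0.12 (SE; 95% interval -0.32 to 0.18). For msh-5 the signal was 0.21, 0.37 and -0.53 in HC445 after 25 °C grandparents, against 0.19, 0.51 and -0.44 after 20 °C grandparents. In N2 it was -0.16, 0.21 and -0.53 after 25 °C grandparents, against 0.23, 0.50 and -0.25 after 20 °C grandparents. The log2 fold change of msh-5 was -0.20 ± 0.20 (interval -0.60 to 0.21), with the 25 °C array lower in 5 of 6 pairs. In the scan-day block fit its interval was -0.37 to -0.02 and its limma adjusted p was 0.441, and 0.610% of all probes passed. The other 5 genes had estimates between -0.14 (him-8) and 0.08 (syp-2). Within HC445 and within N2 limma also called 0 of the 7 genes, with 0 at an unadjusted p under 0.05, where 0.0859% and 0.112% of all probes passed and 421 and 544 had an unadjusted p under 0.05. The effect in HC445 minus that in N2 lay between -0.32 (him-8, interval -0.80 to 0.16) and 0.25 (msh-5), and 0 of 7 passed at either level, with 0 of all probes adjusted and 257 unadjusted.

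The him-8 estimate rested on 1 array. On the HC445 array of replicate 2 after 25 °C grandparents the him-8 signal was 1.67 (processed intensity 129563), while the other 23 arrays lay between 2.24 and 2.75. In HC445 its signal was 2.41, 1.67 and 2.50 after 25 °C grandparents, against 2.44, 2.41 and 2.63 after 20 °C grandparents, a log2 fold change of -0.30 ± 0.16. Without that array the value in HC445 was -0.04 and the value over both strains was -0.01 in place of -0.14. The spot carried no outlier flag, and the other 6 genes were not the lowest of their group on that array.

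The effects of the 2 generations were compared directly. The effect of the mothers minus that of the grandparents was 0.50 ± 0.17 for spo-11 (95% interval 0.14 to 0.85; limma adjusted p = 0.0995) and 0.66 ± 0.28 for msh-5 (interval 0.08 to 1.23; limma adjusted p = 0.212). In this limma fit 0 of 7 genes passed after adjustment, against 5.30% of all probes, and 2 of 7 had an unadjusted p under 0.05, against 1963 of 11637 probes. In the scan-day block fit both passed (limma adjusted p = 0.0412 for spo-11 and 0.00117 for msh-5), as did 10.3% of all probes. For the other 5 genes the difference lay between -0.10 (syp-1) and 0.16 (him-3). Between the groups kept at 20 °C throughout, generation 3 minus generation 2 gave estimates from -0.15 (syp-1) to 0.06 (spo-11), and limma called 0 of the 7 genes and 0 of all probes, with 0 of the 7 and 366 of all probes under an unadjusted p of 0.05.

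The strains were then compared at 20 °C over both generations. Estimates of HC445 minus N2 lay between -0.17 ± 0.12 (spo-11) and 0.07 ± 0.10 (syp-2), and none of the 7 genes passed the limma test or had an unadjusted p under 0.05, against 0.112% of all probes that passed and 630 of 11637 with an unadjusted p under 0.05. The mean spo-11 signal was 1.35 ± 0.23 in HC445 and 1.52 ± 0.18 in N2 (SD, n = 6 each), and its interval of -0.42 to 0.08 includes 0. The mean msh-5 signal was 0.06 ± 0.35 in HC445 and 0.15 ± 0.33 in N2 (SD, n = 6 each). For rad-51, the most even of the 7 across groups, the means were 2.55 ± 0.12 in HC445 and 2.52 ± 0.11 in N2.

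Across the 8 groups, the means of spo-11 were highest in N2 after 25 °C mothers (1.87 ± 0.23, SD, n = 3) and in HC445 after 25 °C mothers (1.80 ± 0.17). They went on through N2 after 20 °C mothers (1.56 ± 0.19) and the generation 3 groups, at 1.48 ± 0.19 (N2, 20 °C), 1.45 ± 0.22 (HC445, 20 °C), 1.41 ± 0.23 (HC445, 25 °C) and 1.38 ± 0.24 (N2, 25 °C), to HC445 after 20 °C mothers (1.25 ± 0.24). The largest step between neighbours, 0.24, separated the groups of 25 °C mothers from the rest. The order of msh-5 began with the same groups, at 0.56 ± 0.27 in HC445 and 0.53 ± 0.35 in N2 after 25 °C mothers, and its largest step of 0.37 also came after them. The other 6 groups of msh-5 had means from 0.16 ± 0.38 in N2 after 20 °C grandparents down to -0.16 ± 0.37 in N2 after 25 °C grandparents. For each of the 7 genes all 7 pairs of neighbours in the order overlapped in their ranges, without regard to scan day. The group means of rad-51 spanned 0.09, those of syp-1 0.21, him-3 0.26, syp-2 0.31, him-8 0.37, spo-11 0.61 and msh-5 0.72 on the log2 scale.

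**Figure D4:**
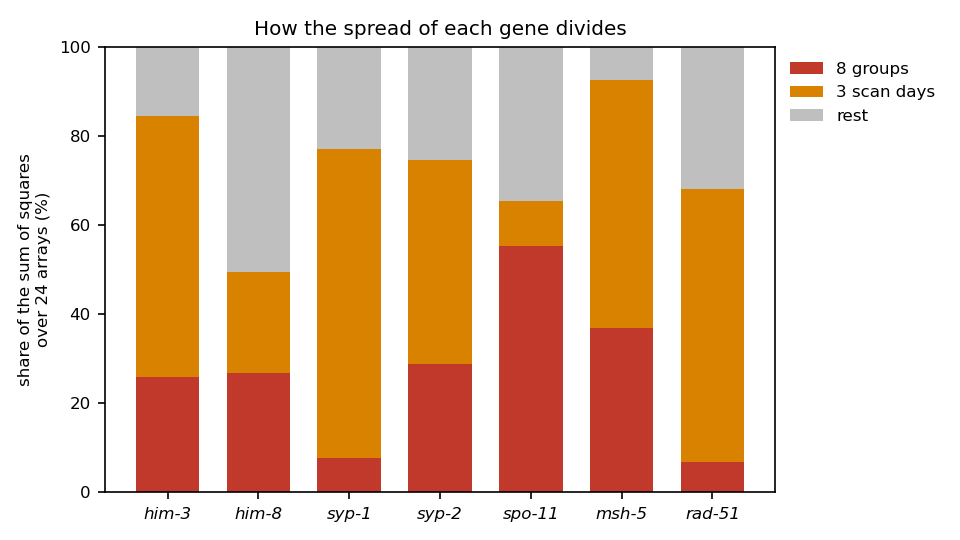
Share of each gene's sum of squares over 24 arrays that falls to the 8 groups (red), the 3 scan days (orange) and the rest (grey), in percent. The groups take 55.3% for spo-11 and 37% for msh-5, and the scan day takes 69.4% for syp-1 and 61.1% for rad-51. The shares are not corrected for there being 8 groups and only 3 scan days, so red and orange are not directly comparable.

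Much of the spread of most of these genes followed the scan day. The scan day took 69.4% of the sum of squares of syp-1, 61.1% of rad-51, 58.6% of him-3, 55.5% of msh-5, 45.8% of syp-2, 22.7% of him-8 and 10.1% of spo-11. Some share would fall to the days without any day effect, and that part was not subtracted. Replicate 3 held the lowest msh-5 signal in all 8 groups, as for 1.11% of all probes, with means of 0.22, 0.50 and -0.20 on the arrays of replicates 1, 2 and 3. The residual SD of msh-5 was 0.38 from the group means alone and 0.14 once the scan day was removed. The medians over all tested probes were 0.37 and 0.3. For him-3 it was replicate 1 that was lowest in all 8 groups, as for 3.63% of all probes, with means of 2.20, 2.45 and 2.44. The syp-1 signal was lowest in replicate 1 in 7 of 8 groups and highest in replicate 3 in 7 of 8. What else differed between the replicates, such as collection or amplification, was not tested. Each scan day held all 8 groups, so a shift common to all arrays of a day enters both sides of every comparison of temperature. In the fit of group means such shifts remained in the error. In replicate 3 the arrays of the groups with warmer mothers or grandparents shared a slide that held no other arrays. A shift of that slide alone was not separated from temperature on that day.

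Over the 24 arrays, the members varied together to different degrees. Signals of him-3 and syp-1 had a Pearson r of 0.72 (Spearman rho 0.73), and those of syp-1 and rad-51 an r of 0.70 (rho 0.66), and all 3 genes were low on the replicate 1 arrays. The r of spo-11 and msh-5 was 0.47 (rho 0.46) over arrays and 0.92 over the 8 group means. Over the same group means the r of him-3 was 0.89 with msh-5 and 0.80 with spo-11. The highest group means of spo-11, msh-5 and him-3 were those after 25 °C mothers, so these r values are not separate from that comparison. These are descriptions over 24 arrays that share slides and scan days. Like probes were sought among the 10659 other tested probes with a value on every array. Of these, the one most like syp-1 over the 24 arrays was WBGene00001229 (r = 0.94, rho 0.90, and r = 0.92 without the 2 arrays farthest from the syp-1 median). The one most like rad-51 was WBGene00022141 (r = 0.94, rho 0.93, and 0.95 without the 2 farthest arrays). Their log2 fold changes after 25 °C mothers were -0.02 and -0.12, and neither passed (limma adjusted p = 0.956 and 0.487).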

How the data were processed

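Spot intensities had been extracted with Agilent Feature Extraction 9.5.3.1 and deposited as scanner output, per the file headers: background-subtracted, detrended within the array, and combined from scans of 2 sensitivities. The labels' protocols state 2 rounds of in vitro transcription from an oligo-dT primer and Cy3 labelling. Flags of 0 or 1 for saturated, outlier and well-above-background spots come from the same deposited files. The deposited series table holds log2 values with the same distribution in every column. The sources used here do not state how it was made.

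Control spots were left out and outlier spots set to missing (3 to 373 per array). The log2 processed signal of each spot was scaled by subtracting the array's 75th percentile. A probe was tested if all 3 arrays of some group had it well above background (11637 of 15208), and all 7 genes were well above background on all 24 arrays, so none entered through a single group. limma 3.58.1 in R 4.3.3 fitted 1 mean per group over all 24 arrays (lmFit, eBayes with trend, 16 residual degrees of freedom), with no term for slide or scan day. The tests were two-sided, with Benjamini-Hochberg adjustment over all tested probes. The fit was tested on simulated data with independent noise on each array. Those data held no slide or scan-day effect, so that test does not cover such effects. The number of arrays limits the precision.

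Gene names are those by which the 7 IDs were chosen. The reference gene table holds all 7 symbols but no WormBase IDs, so a list of other meiotic genes, the markers of embryo stage, sperm and maternal soma, and sequences were not used here. Named are the 7 genes and, by ID, the 2 probes with the highest correlation to one of them among tested probes with a value on every array. The genes, lists and alternatives were chosen with earlier results of these data known. Alternatives changed the normalization, background correction (normexp, offset 50, on median spot intensities), source of values, filter, slide and scan day terms and the arrays included. Figures were drawn with matplotlib 3.10.9.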

Additional observations from a re-analysis of the deposited data

How the results depend on the processing

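Of the 7 genes, 1 (spo-11) passed for 25 °C mothers with both strains pooled. The number was 2 (spo-11 and msh-5) when slide was a random block and under the replicate block, which is the scan day, and 0 with slide as a fixed block (3 residual degrees of freedom), without the 6 spike-in arrays (which left 1 N2 array of 25 °C mothers, assumed to vary like the other groups) and without the slide of the 25 °C arrays of replicate 3. In those 3 fits spo-11 had 0.39, 0.48 and 0.43 on the log2 scale (limma adjusted p = 0.554, 0.0643 and 0.0584), and 0.352%, 6.95% and 9.62% of all probes passed. Leaving out 1 array at a time gave 0 to 1. In N2 the number was 1 with the replicate block, against 0, where 11.1% of all probes passed. In HC445 it was 1 (spo-11) with quantile normalization, normexp or the deposited series values, where 5.35%, 5.09% and 5.40% of all probes passed. With the replicate block it was 2 in HC445 (9.71% of all probes), against 0. For the effect of mothers minus grandparents it was 1 with normexp (5.84% of all probes) and 2 with the replicate block (10.3%), against 0. All other comparisons gave 0 of 7 in every refit, and the replicate block changed no other call. Over all 34 refits spo-11 kept its sign for 25 °C mothers (0.36 to 0.48) and so did msh-5 (0.30 to 0.64). The threshold was passed by spo-11 in 27 refits and by msh-5 in 2. These counts include the refits without a generation 3 array, which could not move either estimate and changed only its error. In each of those spo-11 passed. Same-numbered arrays of different groups deviated together in 65 of 84 pairs (correlation over 0.1, lowest -0.23), and 24 of 24 arrays were closest to their own number. That number is the scan day, and the labels do not say whether same-numbered samples also share a collection day.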
